A study of Homo sapiens with 6 samples.

Results

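The 10 genes described here encode subunits of the transcription factor NF-kB and proteins that restrain or relay its signal. They were taken by symbol from the 37923 genes of the deposited tables, and all 10 were found: NFKB1, NFKB2, RELA, RELB, NFKBIA, NFKBIB, TNFAIP3, BIRC2, BIRC3 and TRAF1. The study compared 3 libraries labelled Control with 3 labelled ENZ, and all 6 carry the cell line label RKO, the name of a colorectal carcinoma line. According to the series design, the ENZ group received compound A3, a degrader of the histone demethylase LSD1, and RNA was taken 48 h after treatment. The sources used here do not say what the Control cells received, what dose was used, or what the name ENZ means. The design calls the 3 libraries of a group biological replicates without saying what separated them, so the p-values reflect spread among libraries that may be only technical.

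NF-kB proteins wait in the cytoplasm, bound by IkB proteins. Signals from receptors of the TNF and interleukin-1 families activate kinases that mark the IkB proteins for destruction. The freed dimers enter the nucleus and switch on genes that include BIRC3 and their own brakes, such as NFKBIA and TNFAIP3. RELA pairs with the NFKB1 product p50 in the classical arm, and RELB pairs with the NFKB2 product p52 in the alternative arm. BIRC2, BIRC3 and the adaptors TRAF2 and TRAF3 hold the alternative arm in check.

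TNFAIP3 and BIRC3 were lower in the libraries labelled ENZ, by 3.03-fold and 2.51-fold, and both had low levels in every library. NFKBIA was lower by 12.6%, and RELA and NFKBIB were higher by 15.5% and 17.1%. NFKB1, NFKB2, RELB, BIRC2 and TRAF1 did not pass the test. Calls rest on the quasi-likelihood test of edgeR, with an adjusted p (Benjamini-Hochberg, over 18581 tested genes) below 0.05. By that rule 5 of the 10 genes were called, 2 higher and 3 lower, where 39.8% of all tested genes were called (20.5% higher and 19.3% lower). A call with an absolute log2 fold change over 1, the limit named in the series design, was reached by 2 of the 10, both lower, against 2.98% of all tested genes in either direction and 2.24% lower. The median log2 fold change of the 10 genes was -0.11, and that of all tested genes was -0.01. The kit does not mark strand, so reads from opposite-strand neighbours could be shared where RELA overlaps RELA-DT (103 bases) and NFKBIB overlaps SIRT2 (163 bases). Over all 6 libraries SIRT2 had 11459 counts against 8817 for NFKBIB, and RELA-DT had 1111 against 14830 for RELA, and the part of shared reads in the RELA and NFKBIB differences was not tested. TNFAIP3 overlaps WAKMAR2 and BIRC3 overlaps the unnamed ENSG00000288528 in the same way, and these had 12 and 2 counts over all 6 libraries. All adjusted p-values below come from this edgeR test, and all fold changes are ENZ over Control.

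The libraries held 26691289 to 30025543 counts. CPM is the count of a gene per 1000000 counts of its library. The limit set by 0 counts, taken as 3 counts, is 0.0999 to 0.112 CPM depending on the library, for counting error alone. The labelled cell type was checked against marker lists. Of 11 colorectal epithelium markers in the table, 8 averaged under 1 CPM, every library had at most 0.04 CPM of CDX1 and of KRT20, and VIL1 averaged 39.9 ± 1.18 CPM in Control (SD, n = 3). Of 12 prostate luminal markers 8 averaged over 10 CPM, including FOLH1 at 626 ± 3.69 CPM in Control (SD, n = 3), so the libraries do not show the marker pattern of colorectal epithelium. Leukocytes use much TNFAIP3, BIRC3 and TRAF1. All 10 leukocyte markers in the table averaged under 1 CPM, CD3E and ITGAM were at 0 in every library, and the summed level of the list was 1.44 to 1.69 CPM in Control and 1.70 to 2.20 CPM in ENZ. That sum was higher where TNFAIP3 and BIRC3 were lower, and its part in their difference was not tested. In bulk RNA, fewer cells that express a gene and less RNA per cell cannot be told apart.

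The promoters shown are those of the 3 genes called lower, TNFAIP3, BIRC3 and NFKBIA, so the choice followed the result. All 3 are textbook targets of NF-kB, but they are not the only listed genes that NF-kB induces. The windows run from 250 bases before the transcription start to 49 bases beyond it, on the gene's own strand, 5′ to 3′, from RefSeq (GRCh38.p14). Capitals mark matches to the NF-kB consensus on either strand.
TNFAIP3 (chr6:137867009-137867308, plus strand): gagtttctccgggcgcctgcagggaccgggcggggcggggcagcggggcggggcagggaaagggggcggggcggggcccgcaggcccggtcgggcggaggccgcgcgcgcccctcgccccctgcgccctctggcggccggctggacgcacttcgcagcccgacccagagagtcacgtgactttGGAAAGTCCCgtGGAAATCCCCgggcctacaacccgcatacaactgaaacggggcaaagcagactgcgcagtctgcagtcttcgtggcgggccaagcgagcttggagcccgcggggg
BIRC3 (chr11:102317234-102317533, plus strand): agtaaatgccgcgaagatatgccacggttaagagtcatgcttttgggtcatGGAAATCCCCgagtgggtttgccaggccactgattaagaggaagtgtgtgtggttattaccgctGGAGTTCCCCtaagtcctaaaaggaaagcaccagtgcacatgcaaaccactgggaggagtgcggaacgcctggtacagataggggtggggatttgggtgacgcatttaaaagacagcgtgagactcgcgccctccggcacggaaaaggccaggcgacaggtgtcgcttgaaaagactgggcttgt
NFKBIA (chr14:35404700-35404999, minus strand): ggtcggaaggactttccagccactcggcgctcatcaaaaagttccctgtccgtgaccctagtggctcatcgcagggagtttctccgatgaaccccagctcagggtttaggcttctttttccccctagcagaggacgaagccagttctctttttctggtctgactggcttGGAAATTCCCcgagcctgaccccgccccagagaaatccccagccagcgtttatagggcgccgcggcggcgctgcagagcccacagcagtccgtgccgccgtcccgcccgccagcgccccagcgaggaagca

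The TNFAIP3 window held 2 consensus matches, which began 67 and 55 bases before the start. The BIRC3 window also held 2, which began 199 and 135 bases before the start, and NFKBIA had 1, which began 81 bases before it. The letters GGAAATCCCC occurred in both the TNFAIP3 and the BIRC3 window. Of the 10 genes, 9 were found in the promoter table, with 17 windows because several have more than 1 start. The consensus was found in 7 of the 17 windows (41.2%), belonging to 6 genes, and in 11.3% of all 35116 windows of the same length. These shares are a description and no test. The genes were listed for their part in NF-kB feedback, and windows of the same gene are not independent. Of all windows 2.04% held 2 or more matches, counting overlapping ones. Consensus matches were also found for NFKB1 and NFKB2, which were not called, and for NFKBIB, which was called higher. Counting overlapping ones, NFKB2 had 3 in 1 window and 2 in another, NFKBIB had 3 in 1 window, and NFKB1 had 1. Having 2 or more matches was therefore not particular to the genes called lower. RELA, BIRC2 and TRAF1 had none in these windows. A looser pattern of 3 G, any 5 bases and 2 C, which contains every consensus match and was also searched on both strands, was present in all 17 windows and in 58.7% of all windows. A match is a run of letters and no evidence of binding in these cells.

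**Figure D1:**
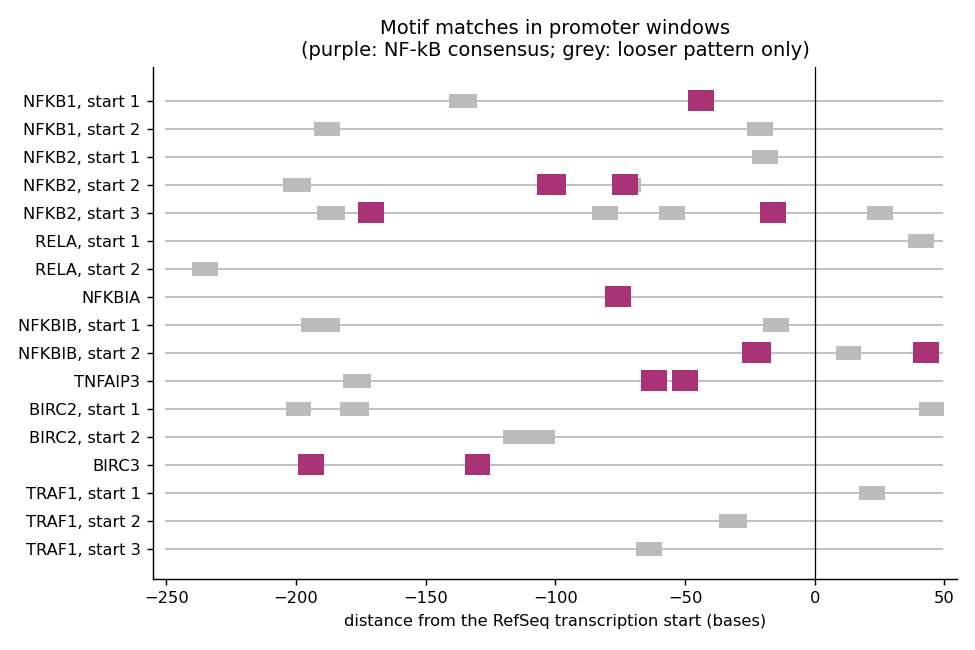
Positions of NF-kB consensus matches (purple) and of the looser pattern alone (grey) in the 17 promoter windows of 9 genes, in bases from the RefSeq transcription start, with one line per start. TNFAIP3 and BIRC3 each show 2 purple matches and NFKBIA shows 1, all before the start, while both BIRC2 windows show none.

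Among the subunits, RELA was higher in ENZ. RELA encodes p65, the subunit that activates transcription in the classical dimer. Its levels were 78.0, 88.7 and 81.8 CPM in Control replicates 1, 2 and 3 and 88.7, 94.9 and 96.4 CPM in ENZ replicates 1, 2 and 3. Control replicate 2 and ENZ replicate 1 were nearly equal (88.66 and 88.69 CPM), so the groups were separated by very little. The log2 fold change was 0.21 ± 0.05 (SE), with an adjusted p of 0.00304.

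NFKB1, which encodes the p105 precursor of p50, had 33.0, 33.5 and 35.3 CPM in Control and 30.7, 31.4 and 30.4 CPM in ENZ. All ENZ libraries lay below all Control libraries, but the difference did not pass the test (log2 fold change -0.10, 95% confidence interval -0.22 to 0.01, adjusted p = 0.152). NFKB2, which encodes the p100 precursor of p52, had 107, 106 and 104 CPM in Control and 96.4, 99.3 and 104 CPM in ENZ. Its groups overlapped, through ENZ replicate 3, and the log2 fold change was -0.05 (interval -0.14 to 0.04, adjusted p = 0.426). It was -0.01 without ENZ replicate 1 and -0.08 without ENZ replicate 3. RELB, the partner of p52, was scarce, with 43 to 67 counts per library. It had 1.84, 2.47 and 2.17 CPM in Control and 1.998, 1.61 and 2.24 CPM in ENZ, and the ranges overlapped. The interval of its log2 fold change, -0.50 to 0.28, is wide at this depth (adjusted p = 0.689), and its sign turned without Control replicate 2 (0.0045) or ENZ replicate 2 (0.011).

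Transcript composition was read from the deposited FPKM, which divides by gene length so that different genes can be set side by side. RELA averaged 82.8 CPM and 15.2 FPKM in Control, and NFKBIB 48.9 CPM and 21.0 FPKM. Their longest annotated transcripts have 3183 and 2200 bases, so the length behind the RELA value exceeds that of its longest transcript. With other lengths the shares, the order of genes and the percentages between genes, here and below, would change. Over NFKB1, NFKB2, RELA, RELB and REL, the fifth subunit, NFKB2 made up 46.8% to 51.2% of the summed FPKM in every library. The RELA share was 32.1% to 35.2% in Control and 37.4% to 38.6% in ENZ. RELB held 1.18% to 1.77% and REL 2.40% to 3.60% over all libraries. The sum over the 5 subunits was 44.5 to 46.1 FPKM in Control and 43.4 to 46.4 FPKM in ENZ, so the total overlapped between the groups while the RELA share did not.

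The 2 IkB genes went in opposite directions. NFKBIA encodes IkB-alpha, the inhibitor that NF-kB itself induces. It had 36.5, 36.4 and 35.8 CPM in Control and 29.5, 31.7 and 31.6 CPM in ENZ. Every ENZ library was below every Control library (log2 fold change -0.19 ± 0.06 SE, adjusted p = 0.00932). NFKBIB encodes IkB-beta, a slower inhibitor of the same dimers. It had 47.0, 50.3 and 49.3 CPM in Control and 52.4, 55.9 and 59.2 CPM in ENZ. Here every ENZ library was above every Control library (log2 fold change 0.23 ± 0.06 SE, adjusted p = 0.00236). In FPKM, NFKBIA stood at 76.1%, 70.8% and 71.3% of NFKBIB in the Control libraries and at 55.2%, 55.5% and 52.2% in ENZ. The log2 ratio was lower by 0.42 in ENZ without overlap, and the exact two-sided permutation test gave p = 0.1, the smallest value that 3 against 3 libraries allow.

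TNFAIP3 encodes A20, a ubiquitin-editing enzyme that shuts down signalling from TNF receptors. It lies on chromosome 6 from 137867214 to 137883314 (GRCh38). Its counts were 74, 56 and 57 in Control and 28, 21 and 14 in ENZ, or 2.62, 2.06 and 2.14 CPM against 0.933, 0.785 and 0.476 CPM. The lowest Control library stood well above the highest ENZ library. The log2 fold change was -1.60 ± 0.24 (SE; interval -2.09 to -1.11; adjusted p = 1.35e-05). A20 acts with ABIN-1, the product of TNIP1, and TNIP1 was higher in ENZ (55.8 ± 1.77 and 63.1 ± 2.31 CPM, log2 fold change 0.21 ± 0.05 SE, adjusted p = 0.00175). TNFAIP3 stood at 5.63%, 4.18% and 4.33% of TNIP1 in FPKM in the Control libraries and at 1.74%, 1.46% and 0.835% in ENZ. The log2 ratio was lower by 1.86 (exact permutation p = 0.1).

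BIRC2 and BIRC3 encode cIAP1 and cIAP2, paralogous ubiquitin ligases that join the TNF receptor complex and mark the kinase NIK (MAP3K14) for destruction. They are neighbours on chromosome 11, BIRC3 from 102317484 to 102339403 and BIRC2 from 102347211 to 102378670 (GRCh38), with 7807 bases between them. BIRC3 had 121, 111 and 85 counts in Control and 37, 44 and 48 in ENZ, or 4.29, 4.09 and 3.18 CPM against 1.23, 1.64 and 1.63 CPM. The groups were far apart, with a log2 fold change of -1.33 ± 0.18 (SE; interval -1.69 to -0.96; adjusted p = 3.39e-06). BIRC2 was far more abundant, with 66.9, 60.5 and 65.8 CPM in Control and 62.6, 55.9 and 45.9 CPM in ENZ. Its groups overlapped, because ENZ replicate 1 lay inside the Control range, and its log2 fold change was -0.20 (interval -0.42 to 0.02, adjusted p = 0.144). Without ENZ replicate 1 it was called, at -0.30 (adjusted p = 4.63e-04), as it was with no filter on low counts (-0.20, adjusted p = 0.00158). Without ENZ replicate 3, its lowest library, the value was -0.09 (adjusted p = 0.256).

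In FPKM BIRC3 stood at 3.85%, 4.06% and 2.91% of BIRC2 in the Control libraries and at 1.18%, 1.77% and 2.14% in ENZ. The log2 ratio was lower by 1.12 in ENZ (exact permutation p = 0.1), and the ratio was lower in every ENZ library than in every Control library. Within 500 kb of the pair 9 genes were tested, the pair included, with 2 called higher and 2 lower. MMP10, a matrix metalloproteinase gene, was called higher (adjusted p = 0.00215) at levels near the counting limit, 0.109 CPM in Control and 0.475 CPM in ENZ on average. YAP1, on the BIRC3 side, was higher by 0.14 on the log2 scale (adjusted p = 0.0233), and TMEM123, on the BIRC2 side, fell by 0.17 (adjusted p = 0.0477).

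TRAF1 encodes an adaptor that binds the cIAP proteins through TRAF2 and is itself induced by NF-kB in lymphoid cells. It had 3.44, 3.53 and 3.56 CPM in Control and 4.80, 4.04 and 3.13 CPM in ENZ. The Control libraries were close together and the ENZ libraries lay on both sides of them (log2 fold change 0.22, interval -0.09 to 0.53, adjusted p = 0.258). The value was 0.07 without ENZ replicate 1 and 0.37 without ENZ replicate 3, and neither was called.

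**Figure D2:**
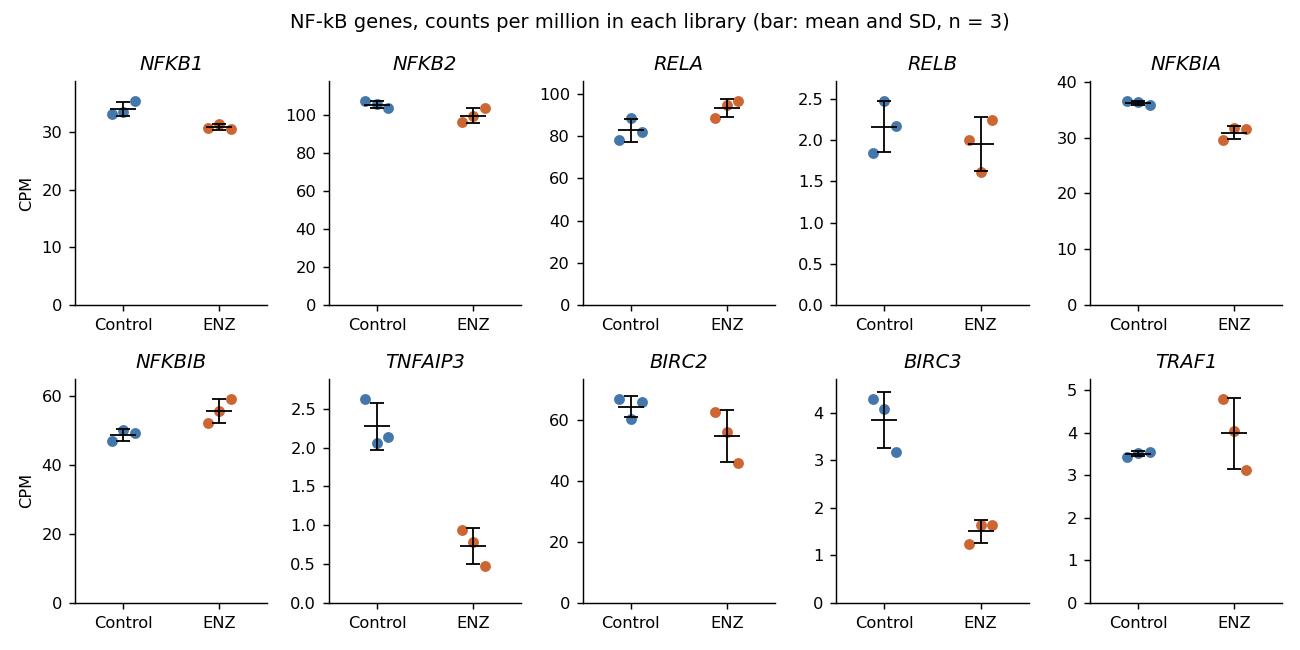
CPM of each gene in the 3 Control (blue) and 3 ENZ (orange) libraries, with mean and SD; each vertical axis starts at 0 and has its own scale. TNFAIP3 and BIRC3 show wide gaps between the groups (BIRC3 at 3.18 to 4.29 CPM against 1.23 to 1.64), RELA a narrow one, and NFKB2, RELB, BIRC2 and TRAF1 overlap.

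In all, the CPM ranges of the groups did not overlap for 6 of the 10 genes, 2 higher and 4 lower in ENZ, where this held for 49.2% of all tested genes (21.7% higher and 27.6% lower). CPM uses library totals alone, while the fold changes also use TMM scaling factors. With totals alone edgeR called 3097 genes higher and 4104 lower, with a median log2 fold change of -0.04. NFKB1 was then at -0.14, without a call. In Control the FPKM order ran from NFKB2 (22.4) through NFKBIB (21.0), NFKBIA (15.3), RELA (15.2), BIRC2 (14.3) and NFKB1 (5.34) to TRAF1 (0.784), RELB (0.716), BIRC3 (0.513) and TNFAIP3 (0.453). RELA overlapped in its range with NFKBIA above it and with BIRC2 below it, TRAF1 overlapped with RELB, and BIRC3 with TNFAIP3. In ENZ NFKBIB (24.0 FPKM) ranked above NFKB2 (21.2), with no overlap, and BIRC3 (0.200) and TNFAIP3 (0.146) were again the lowest. The ratio of RELB to RELA, a comparison of the alternative with the classical arm, was 4.28%, 5.03% and 4.81% in Control and 4.08%, 3.06% and 4.21% in ENZ. The log2 ratio was lower by 0.33 in ENZ, with the highest ENZ library close to the lowest Control library (exact permutation p = 0.1), and without ENZ replicate 2 the difference was -0.18. The exact permutation test was run on 4 ratios, each at p = 0.1, with Benjamini-Hochberg adjusted values of 0.1 as well.

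**Figure D3:**
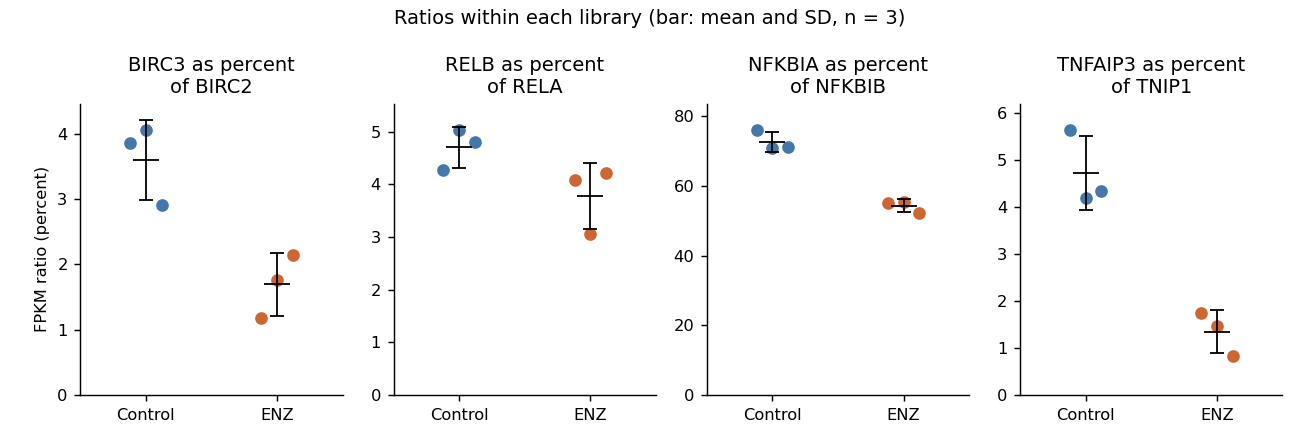
FPKM of 1 gene as a percentage of another within each library, for 4 pairs, with mean and SD (n = 3 libraries a group). NFKBIA falls from 70.8% or more of NFKBIB in every Control library to 55.5% or less in ENZ, and the gap is narrowest for RELB against RELA.

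Over all tested genes the fold change was higher in GC-rich transcripts, going from a median of -0.18 in genes under 40% GC to 0.14 in genes over 60% GC. BIRC3, NFKB1 and BIRC2 have 35.8%, 36.0% and 38.0% GC, while RELA, NFKBIB and NFKB2 have 57.1%, 60.5% and 62.4%. With offsets for GC content and length the called differences kept their direction and their call, TNFAIP3 at -1.60, BIRC3 at -1.10, NFKBIA at -0.22, RELA at 0.13 and NFKBIB at 0.14 on the log2 scale. NFKB2 was then called lower (-0.18, adjusted p = 5.75e-05), BIRC2 was at -0.01 and NFKB1 turned to 0.12 without a call.

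**Figure D4:**
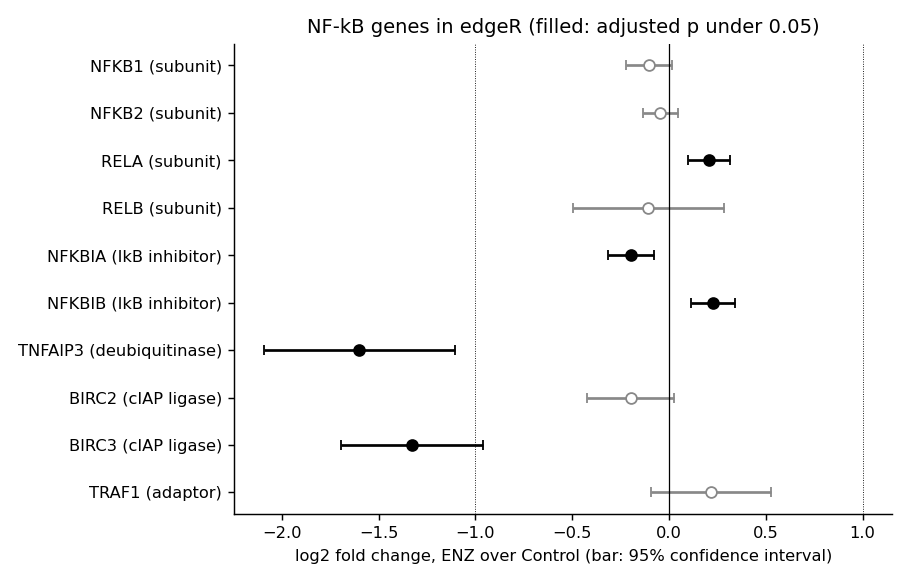
Log2 fold change of ENZ over Control for each of the 10 genes with its 95% confidence interval; filled points passed an adjusted p of 0.05 and dotted lines mark an absolute log2 fold change of 1. TNFAIP3 (-1.60) and BIRC3 (-1.33) lie far to the left of the other 8 genes, whose values lie between -0.20 and 0.23.

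The other genes of the pathway were read from 5 lists chosen by role. Of their 98 genes 93 were in the table and 64 were tested. Among these 24 were higher and 9 lower, or 51.6% called, with a median log2 fold change of 0.13. These counts and medians were not corrected for GC content. The part of the GC trend described above in the lists as a whole was not tested. Over all tested genes 39.8% were called, 20.5% higher and 19.3% lower, with a median of -0.01, and the counts of each list below stand beside these shares. Ligands were almost silent. All 9 in the table averaged under 1 CPM and none exceeded 0.224 CPM in any library, TNF, LTA, IL1A and IL1B included. Of 16 receptors 7 averaged over 10 CPM. In the list of ligands and receptors 10 were tested, 3 higher and 1 lower, with a median of 0.04. TNFRSF12A, the receptor of the cytokine TWEAK, rose from 30.0 ± 0.741 to 42.0 ± 1.61 CPM (log2 fold change 0.52, adjusted p = 2.34e-07). IL1R1, the signalling receptor of interleukin-1, rose by 0.41 and LTBR, the lymphotoxin-beta receptor, by 0.23, while IL1RAP, the co-receptor of IL1R1, fell by 0.36. TNFRSF1A, the main TNF receptor, had 69.1 ± 1.20 and 70.5 ± 4.12 CPM and did not pass the test (adjusted p = 0.333). The IL1RAP call was lost without Control replicate 1 (-0.27, adjusted p = 0.0874) and in DESeq2 (adjusted p = 0.054).

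Adaptors and kinases had 10 higher and 6 lower of 26 tested, with a median of 0.14. MALT1, the paracaspase that cleaves A20 and links antigen receptors to NF-kB, fell from 46.2, 42.9 and 45.5 CPM in Control to 20.4, 19.1 and 17.5 CPM in ENZ. No library of one group came near the other (log2 fold change -1.21 ± 0.06 SE, adjusted p = 1.26e-12). IKBKB, the kinase that phosphorylates IkB proteins, fell by 0.19, and MAP3K7, which encodes the upstream kinase TAK1, fell by 0.19. The MAP3K7 call ended when any library except ENZ replicate 1 was left out, with values from -0.21 to -0.13, and with GC and length offsets (-0.03). RBCK1, which encodes a part of the linear ubiquitin ligase, rose by 0.36, IRAK1, a kinase of the interleukin-1 receptor, by 0.30, and TRAF3, the adaptor that holds NIK for destruction, by 0.27.

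The other subunit and IkB proteins had 2 higher and 1 lower of 5, with a median of 0.26. NFKBIZ, an inducible nuclear IkB protein, rose from 32.0, 31.1 and 29.3 CPM to 59.0, 54.98 and 53.6 CPM. The groups lay far apart (log2 fold change 0.90 ± 0.06 SE, adjusted p = 2.32e-11); in the annotation NFKBIZ overlaps NXPE3 on the same strand over 15753 bases, so its count is uncertain. BCL3, a nuclear co-regulator of p50 and p52, rose by 0.37. REL, the c-Rel subunit of lymphocytes, fell by 0.27, and that call was lost without Control replicate 1 (-0.19, adjusted p = 0.0959) and with GC and length offsets (-0.09, adjusted p = 0.307).

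Other brakes of the pathway had 4 higher and 0 lower of 12 tested, with a median of 0.06. PDLIM2, a nuclear ligase that removes RELA, rose by 0.88 at 1.31 ± 0.375 and 2.34 ± 0.128 CPM. OTUD7B, a deubiquitinase, rose by 0.23, and TNIP2, a binding partner of A20, by 0.22; TNIP1 was the other. Other target genes had 5 higher and 1 lower of 11 tested, with a median of 0.16. The 6 chemokine genes in the table did not exceed 0.112 CPM in any library, CXCL1 and CXCL3 at 0 in all. EFNA1, an ephrin ligand induced by TNF, rose by 0.44, GADD45B, a stress-response gene, by 0.30 and TNFAIP2 by 0.28. ICAM1, under the 1 CPM limit used for naming genes, was called higher by 0.84 (adjusted p = 0.0267). It averaged 0.536 ± 0.0498 CPM in Control and 0.947 ± 0.178 CPM in ENZ. TNFAIP8, a TNF-induced gene that protects cells from apoptosis, fell from 7.22 ± 0.593 to 5.00 ± 0.431 CPM (log2 fold change -0.49, adjusted p = 0.00135). GADD45B and TNFAIP2 were not called in DESeq2 (adjusted p = 0.0773 and 0.0644). GADD45B also lost its call without Control replicate 1 or 3 or ENZ replicate 2 or 3 (0.24 to 0.28), and TNFAIP2 without Control replicate 2 (0.21) or ENZ replicate 2 (0.27). With GC and length offsets neither was called (GADD45B 0.23, TNFAIP2 0.14).

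**Figure D5:**
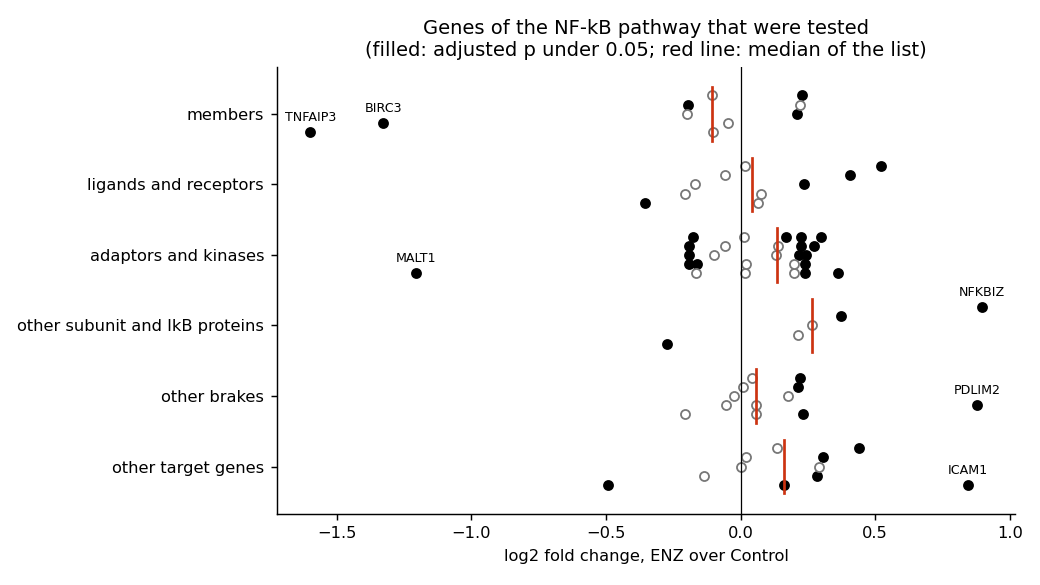
Log2 fold change of ENZ over Control for the tested genes of each list, with 1 point per gene (filled where the adjusted p was under 0.05) and a red line at the median of the list; vertical position within a list has no meaning. TNFAIP3, BIRC3 and MALT1 (-1.21) stand alone below -1, and NFKBIZ (0.90) is the highest point.

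BIRC3 had the smallest adjusted p of the 10 genes. The genes with the most similar level over the 6 libraries, by Pearson's r of log2 CPM among 10234 genes averaging at least 10 CPM, were IMPA2 (0.9948), TYK2 (0.9946) and the unnamed gene ENSG00000278903 (0.9942). With 6 libraries in 2 groups such values mostly restate the difference between the groups, and they are a description. The log2 fold changes of these genes were -0.18, -0.15 and -0.75, against -1.33 for BIRC3.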

How the data were processed

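Per the labels' protocols, polyadenylated RNA was made into libraries with a kit that does not mark strand. Where a gene and an antisense neighbour overlap, reads in the shared stretch therefore cannot be told apart. Tools listed in the submitters' processing notes are HISAT2 2.0.5, HTSeq 0.6.1 and DESeq2 1.20.0, with GRCh38 (hg38) as the build. For annotation release and strand setting: not given in the sources used here. The values the authors deposited are raw counts and FPKM, and FPKM per CPM differed between libraries by at most 6.34e-06 percent.

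Counts were tested with edgeR 4.0.16 (R 4.3.3; TMM factors, default expression filter, robust dispersions), after a check on simulated data. Each SE was derived from the fold change and its F statistic. Positions, GC content and length came from GENCODE release 44 (GRCh38). The 10 genes and all lists were chosen with earlier results of these data known. Up to 3 called genes per list and direction with a mean of at least 1 CPM were named, by absolute fold change. TNIP1 was named for its ratio, and TNFRSF1A, ICAM1, YAP1, TMEM123 and MMP10 after their values were seen. Alternatives were DESeq2 1.42.0, limma 3.58.1 (voom, and log2(FPKM + 1) or log2(FPKM + 0.1)), other scalings and filters, GC and length offsets, the replicate number as a block, and each library left out.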

Additional observations from a re-analysis of the deposited data

How the results depend on the processing

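Of 172 alternative values of the 10 genes, 161 kept both direction and side of the threshold, and 4 turned direction, none of them called: NFKB1 at 0.12 with GC and length offsets, with and without the replicate block, and RELB at 0.0045 without Control replicate 2 and 0.011 without ENZ replicate 2 (-0.22 to 0.011 over the libraries left out). Members called numbered 3 rather than 5 on log2(FPKM + 1) and log2(FPKM + 0.1) values with a mean of at least 1 FPKM. Only 6 were tested there, because the filter removed TNFAIP3, BIRC3, RELB and TRAF1. On unfiltered log2(FPKM + 1) values 3 were called. In that setting RELA and NFKBIB were not called, and TNFAIP3 and BIRC3 were at -0.34 and -0.33 because the added 1 exceeds their levels. The last setting called 3728 genes in all, against 7393. Leaving out 1 library gave 5844 to 8258 genes and 5 to 6 of the 10. Of 372 values of the 21 other genes named by fold change or for a ratio, 0 turned direction. Among them 43 lost their call, mostly for MAP3K7, GADD45B, TNFAIP2 and REL.

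Replicate numbers did not pair the libraries: same-numbered libraries had correlated deviations from their group means of -0.05 to 0.02, and 1 of 6 libraries was closest to its own number. With the replicate block 7466 genes and 6 of the 10 were called, BIRC2 being added (-0.21, adjusted p = 0.029). Within replicate numbers the mean ratio difference equals the difference of the group means by arithmetic, so that value could not change. The smallest possible p there is 0.25. Depth limits RELB, TRAF1, TNFAIP3 and BIRC3, all under 5 CPM.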
